A study of Mus musculus with 4 samples.

Results

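The genes described here encode 10 sensors with which hormone cells of the gut read nutrients, microbial metabolites and irritants. They are the fatty acid receptor genes Ffar1, Ffar2, Ffar3 and O3far1 (the files' name for the gene also called Ffar4 or Gpr120), the lipid receptor gene Gpr119, the calcium-sensing receptor gene Casr, the adrenergic receptor gene Adra2a, the irritant channel gene Trpa1, and the olfactory receptor genes Olfr78 and Olfr558. They were chosen by gene symbol from a fixed list, and all 10 were found among the 23699 gene rows (23074 symbols) of each library. Of the 10, 8 had a mean of at least 0.5 FPKM (sequenced fragments per unit of transcript length and of library size) over the 4 libraries and entered the test. Gpr119 and Casr lay under that minimum and are given as values.

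RNA was sequenced from the colon of adult mice of mixed strain, aged 6 weeks, from the 2 cm that follow the caecum. The 2 mutant libraries came from Nkx2.2flox/flox; Villin-Cre/+ mice, in which a Villin-driven Cre recombinase acts on both floxed alleles of the transcription factor gene Nkx2-2 in the gut epithelium. The 2 control libraries came from Nkx2.2flox/+ mice, which carry a single floxed allele and no Cre, so both groups carry a floxed allele and Cre differs along with the genotype. Whether each library stands for an animal of its own is not stated in the labels, and the p-values therefore cover only the spread among 4 libraries, which may be technical.

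Enteroendocrine cells are hormone-secreting cells scattered through the gut epithelium, and receptors on their surface tie secretion to the contents of the lumen and to signals from the tissue. Receptors for long-chain and short-chain fatty acids, for fat-derived lipid amides and for calcium and amino acids are known in several hormone cell types. In mouse enterochromaffin cells, which release serotonin, Trpa1 is known as the sensor of irritants, Olfr558 as a receptor for a branched short-chain fatty acid and Adra2a as a receptor for catecholamines. Most of these receptors act through G proteins. Gq raises calcium, Gs raises cyclic AMP and Gi lowers it, while Trpa1 is itself a cation channel.

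The 250 bases that precede the annotated start are shown for Adra2a, Olfr558 and Trpa1, whose mutant and control values did not overlap. They are shown as well for O3far1, the most abundant of the receptors, for Olfr78, which shares a gene cluster with Olfr558, and for the farthest of the 5 annotated starts of Ffar2. The sequences come from the mm9 mouse genome and are written 5′ to 3′ on the strand of the gene, at chr19:54119422-54119671 (plus strand, Adra2a), chr7:109850587-109850836 (plus, Olfr558), chr1:14908944-14909193 (minus, Trpa1), chr19:38171319-38171568 (plus, O3far1), chr7:109907986-109908235 (minus, Olfr78) and chr7:31608795-31609044 (minus, Ffar2). Capitals mark matches on either strand to AAGTG, the core of sites that NK2 homeodomain factors bind, to TATAAA, and to the E-boxes CAGCTG and CAGATG.
Adra2a: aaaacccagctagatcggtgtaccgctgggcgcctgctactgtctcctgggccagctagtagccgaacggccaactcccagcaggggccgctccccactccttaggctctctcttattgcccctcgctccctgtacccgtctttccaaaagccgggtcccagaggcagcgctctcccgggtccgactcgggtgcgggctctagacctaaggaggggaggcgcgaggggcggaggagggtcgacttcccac
Olfr558: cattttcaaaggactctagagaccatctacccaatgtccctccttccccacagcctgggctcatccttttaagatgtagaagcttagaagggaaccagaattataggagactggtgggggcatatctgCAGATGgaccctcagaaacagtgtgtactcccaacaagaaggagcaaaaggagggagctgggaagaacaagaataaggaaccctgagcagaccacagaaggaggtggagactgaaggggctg
Trpa1: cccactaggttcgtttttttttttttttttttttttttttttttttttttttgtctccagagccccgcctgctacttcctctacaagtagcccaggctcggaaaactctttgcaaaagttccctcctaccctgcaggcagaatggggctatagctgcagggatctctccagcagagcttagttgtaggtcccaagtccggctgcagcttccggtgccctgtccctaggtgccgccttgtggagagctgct
O3far1: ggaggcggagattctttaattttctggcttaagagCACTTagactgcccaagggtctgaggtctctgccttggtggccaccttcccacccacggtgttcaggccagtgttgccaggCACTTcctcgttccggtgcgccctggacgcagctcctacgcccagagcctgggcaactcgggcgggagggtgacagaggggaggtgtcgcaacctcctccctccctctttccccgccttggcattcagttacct
Olfr78: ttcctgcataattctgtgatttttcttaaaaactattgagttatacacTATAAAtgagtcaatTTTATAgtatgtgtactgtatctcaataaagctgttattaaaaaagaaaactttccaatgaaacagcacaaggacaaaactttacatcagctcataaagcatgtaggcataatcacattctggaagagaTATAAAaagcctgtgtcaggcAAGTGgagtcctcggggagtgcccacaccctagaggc
Ffar2: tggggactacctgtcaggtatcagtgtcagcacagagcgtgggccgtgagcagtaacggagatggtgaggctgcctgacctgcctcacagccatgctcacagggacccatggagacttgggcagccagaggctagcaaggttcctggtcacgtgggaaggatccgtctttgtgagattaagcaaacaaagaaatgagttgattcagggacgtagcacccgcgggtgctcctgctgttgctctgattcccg
Adra2a, Trpa1 and this Ffar2 start had no match to any of the 4 motifs. The O3far1 window held AAGTG as its reverse complement 215 and 134 bases before the start. Olfr78 held it once, 37 bases before the start, along with TATAAA in 3 places, 202, 187 and 58 bases before the start. The only match of Olfr558 was CAGATG, 122 bases before the start. No match overlapped another in these windows. Among 23944 annotated starts, 39.0% had AAGTG in a window of this length, 11.4% TATAAA, 12.5% CAGCTG and 12.2% CAGATG. Adra2a had the most G and C in this window of all 10 genes, 65.6%, against 36.0% for Olfr78 and a median of 56.0% over all starts.

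Facts of the libraries bear on several receptors. The targeted gene Nkx2-2 stood at 0.125 and 0.351 FPKM in the mutants and at 0.724 and 0.609 FPKM in the controls, from 1 to 16.4 implied fragments (the number of fragments that the width of the deposited interval implies). Its mean of 0.452 FPKM was under the minimum, so it was not tested. The authors' deposited DESeq table gave it a log2 change of −0.89 (DESeq p = 0.687). Relative to control 1, sequencing depth was 0.464 in mutant 1, 1.03 in mutant 2 and 1.13 in control 2. Mutant 1 also had 491 of 1111 other olfactory receptor rows above 0, at a mean of 0.125 FPKM, against 27 in mutant 2, 33 in control 1 and 31 in control 2, where the means ran from 0.00403 to 0.00658 FPKM. Control 1 had a summed level of 8 B cell marker genes of 141 FPKM, against 10.3 to 15.1 FPKM in the other libraries. Of 13997 genes tested, 9 passed (limma, Benjamini-Hochberg adjusted p under 0.05; 0.0643%). The median log2 change of all genes, mutant minus control on log2(FPKM + 0.5), was −0.17, and 82.6% of genes had a negative change. After median ratio rescaling, which sets the typical gene equal between libraries, that median was −0.01 and 51.3% were negative.

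None of the 8 tested receptors passed (limma, 0 of 8, against 0.0643% of all genes). At an unadjusted p under 0.05, 1 of 8 was lower, Adra2a, against 4.12% of all genes, and 0 were higher, against 0.7%. The authors' deposited table, made with DESeq, also had none past an adjusted p of 0.05 (0.0384% of its 20834 genes with a p-value passed), and only Adra2a there had an unadjusted p under 0.05, against 0.254% of its genes lower and 0.178% higher at that level. In 2 of 8 receptors, Adra2a and Olfr558, the mutants were lower than the controls with no overlap, against 35.1% of all genes, and in 1 of 8, Trpa1, they were higher with no overlap, against 3.39%. After median ratio rescaling these shares of all genes were 16.2% and 13.9%, and the same 3 tested receptors had no overlap, as did Gpr119, higher in the mutants and not tested. The median log2 change of the 8 was −0.06, against −0.17 for all genes, with 3 positive and 5 negative. After median ratio rescaling it was 0.08 against −0.01.

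**Figure D1:**
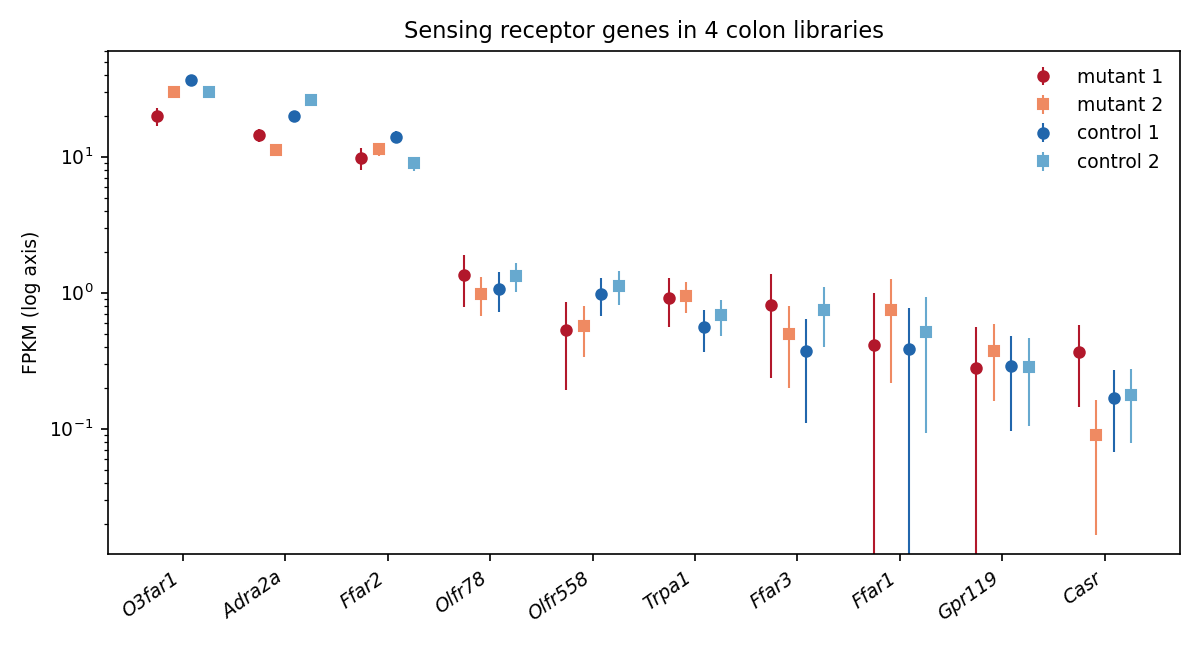
FPKM of the 10 receptor genes (log axis) in each of the 4 libraries, with mutants in red and orange and controls in blue. Vertical lines are the authors' 95% intervals, cut at the lower edge where they reach 0. O3far1, Adra2a and Ffar2 lie between 8.93 and 36.5 FPKM and the other genes at or below 1.35 FPKM; Adra2a and Olfr558 are lower and Trpa1 is higher in both mutants.

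The levels fell into 2 tiers. Over all 4 libraries, O3far1 averaged 29.0 ± 6.87 FPKM, Adra2a 17.8 ± 6.45 FPKM and Ffar2 11.0 ± 2.21 FPKM (SD, n = 4). The other 7 averaged from 1.18 ± 0.184 FPKM for Olfr78 down through Olfr558 (0.800), Trpa1 (0.777), Ffar3 (0.608), Ffar1 (0.512) and Gpr119 (0.307) to 0.200 ± 0.116 FPKM for Casr. Neighbours in this order had overlapping ranges, except Ffar2 over Olfr78 and Ffar1 over Gpr119. The 3 abundant genes made up 90.4% and 92.6% of the summed level of all 10 in the mutants and 94.8% and 93.0% in the controls. That sum was 48.5 and 56.7 FPKM in the mutants, below 74.2 and 69.5 FPKM in the controls. The summed level of all genes was also lower, at 539919 and 590381 FPKM in the mutants against 620766 and 603946 FPKM in the controls. The tissue is the whole wall of the colon, so the files do not place any of this RNA in a cell type, and fewer cells of a type cannot be told apart from less RNA per cell.

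Adra2a, which encodes the alpha-2A adrenergic receptor, is a Gi-coupled receptor for adrenaline and noradrenaline. It had 14.3 and 11.2 FPKM in the mutants, against 19.9 and 25.9 FPKM in the controls, from 360 and 628 implied fragments in the mutants and 1078 and 1580.1 in the controls. Both mutants were low and both controls high. The authors' 95% intervals of the mutant libraries (12.8 to 15.8 and 10.4 to 12.1 FPKM) did not reach those of the controls (18.7 to 21.1 and 24.6 to 27.2 FPKM). The intervals within each group did not meet either, so they do not measure the spread between libraries. The mean was 12.8 ± 2.18 FPKM in mutants and 22.9 ± 4.196 FPKM in controls (SD, n = 2 each). On the log2(FPKM + 0.5) scale the change was −0.81 (SE 0.22, 95% interval −1.32 to −0.31), a 1.76-fold lower level in mutants. It did not pass over all genes (limma adjusted p = 0.825, unadjusted 0.00558). The unadjusted p was 0.0775 without control 2, where the change was −0.63, and was 0.0354 after median ratio rescaling, where it was −0.64.

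The log2 change of Adra2a was negative in each of the 17 fits and tables run, from −0.999 to −0.63. Its values did not overlap between the groups, so leaving out a library or changing the pseudocount could not turn the sign. Settings that changed only the filter, the variance trend or the replicate block gave the same estimate. The authors' deposited table gave mean normalized counts of 648 in mutants and 1037 in controls, a log2 change of −0.68, an unadjusted p of 0.0271 and an adjusted p of 1. Adra2a is a single-transcript gene of 3801 bases in the files, on the plus strand of chromosome 19 from 54119672 to 54123472. No other row overlaps it. Its nearest neighbour, Shoc2, 11903 bases away, stood at 23.2 and 29.2 FPKM in the mutants, against 26.0 and 27.8 FPKM in the controls, so the 2 groups overlapped there.

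Adra2a is known outside enteroendocrine cells too, in neurons, in vessel walls and in fat, so markers of those cells and of glia are given beside it. The summed level of 15 enteric neuron markers was 51.6 and 73.8 FPKM in the mutants, below 81.4 and 101 FPKM in the controls, with 12 of 13 tested markers negative and 4 lower at an unadjusted limma p under 0.05. Of all genes, 82.6% were negative and 4.12% were lower at that level. Vascular markers summed to 56.1 and 77.5 FPKM in the mutants and 100.4 and 90.7 FPKM in the controls, with 9 of 10 negative and 3 lower at that level. Glial markers summed to 65.3 and 54.0 FPKM in the mutants and 68.9 and 74.8 FPKM in the controls, all 7 negative and 3 of them lower at that level, with most of the sum from Erbb3, which epithelium also expresses. Adipocyte markers overlapped, at 105.0 and 169 FPKM in the mutants and 145 and 189.5 FPKM in the controls. Neuronal Phox2a, a transcription factor of autonomic neurons, had 0.205 and 0.368 FPKM in the mutants and 0.712 and 1.68 FPKM in the controls. None of these markers passed, and the part of these cells in the Adra2a values was not tested.

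Enterochromaffin markers were lower in the same mutant libraries. Tph1, which encodes the enzyme that limits the rate at which the gut makes serotonin, stood at 0.354 and 1.40 FPKM in the mutants, against 15.4 and 18.8 FPKM in the controls (log2 change −3.79, limma adjusted p = 0.0140). Of the mutants, the one with Tph1 at 0.354 FPKM had Adra2a at 14.3 FPKM, and the one with Tph1 at 1.40 FPKM had it at 11.2 FPKM. The former library had the lower depth, and a link between these genes was not tested. The other genes of catecholamine reception and handling did not pass (0 of 4 tested of 12 listed; 3 negative, median log2 change −0.10, against −0.17 for all genes). Dbh, which makes noradrenaline, had 1.93 and 1.27 FPKM in the mutants and 1.06 and 2.41 FPKM in the controls. The other alpha-2 receptor genes, Adra2b and Adra2c, were at most 0.239 FPKM in any library.

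**Figure D2:**
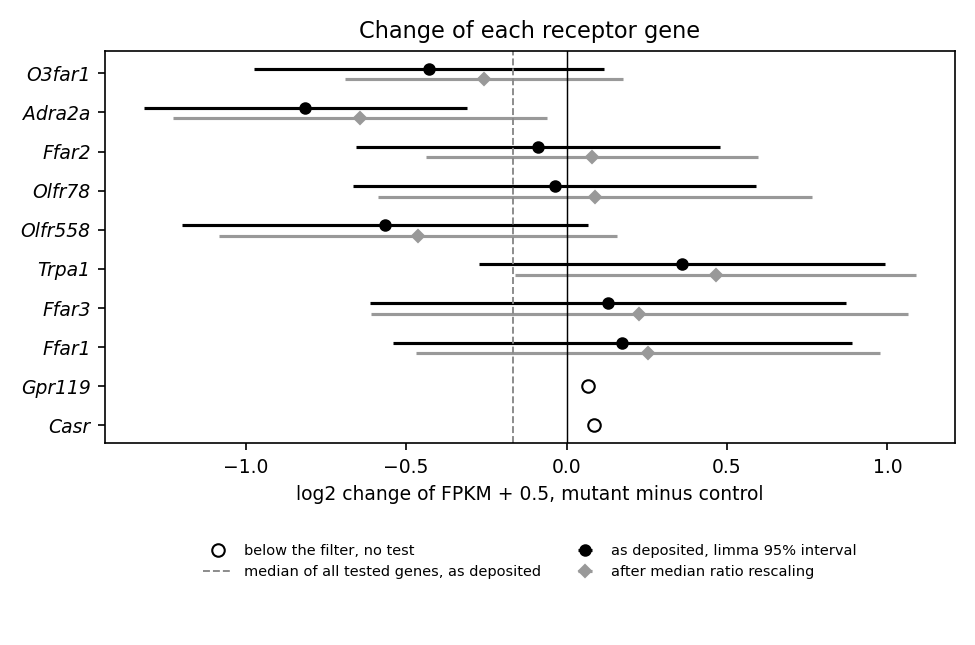
Log2 change of FPKM + 0.5 (mutant minus control) for each receptor gene, with black points and 95% limma intervals for the values as deposited and grey diamonds for the values after median ratio rescaling; open circles are the 2 genes under the filter, which have no test. The interval of Adra2a is the only one that leaves out 0 (−1.32 to −0.31 as deposited), and the dashed line marks the median of all tested genes, −0.17.

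O3far1 encodes a receptor for long-chain fatty acids and was the most abundant of the 10. It had 19.8 and 30.0 FPKM in the mutants, against 36.5 and 29.8 FPKM in the controls. Mutant 1 was the lowest, while mutant 2 and control 2 were nearly equal, so the groups overlapped. The mean was 24.9 ± 7.18 FPKM in mutants and 33.1 ± 4.69 FPKM in controls, with a log2 change of −0.43 (SE 0.24, 95% interval −0.97 to 0.12, limma adjusted p = 0.825, unadjusted 0.107). Its size depended on which library was left out. The change was −0.14 without mutant 1 and −0.72 without mutant 2. It was −0.29 without control 1 and −0.57 without control 2. The gene lies on the plus strand of chromosome 19 from 38171569 to 38188753, with a single transcript of 1393 bases in the files.

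Ffar1, the other receptor for long-chain fatty acids, was near the lower limit of these libraries. It had 0.413 and 0.743 FPKM in the mutants and 0.383 and 0.509 FPKM in the controls, from 2 and 8 implied fragments in the mutants and 4 and 6 in the controls. The groups overlapped, and the authors' intervals of mutant 1 and control 1 reached 0. The log2 change was 0.17 (95% interval −0.54 to 0.89, limma adjusted p = 0.866). On that scale the interval runs from 0.687 to 1.85 times the control level. In mutant 1, 67 of the 1111 other olfactory receptor rows (6.03%) stood higher than Ffar1, against 1 in mutant 2, 3 in control 1 and 4 in control 2. The row covers 903 bases, from 31645587 to 31646489 on the minus strand of chromosome 7.

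Ffar2 and Ffar3 are receptors for the short-chain fatty acids that colonic bacteria make from fibre, and with Ffar1 they form 1 cluster on the minus strand of chromosome 7. Ffar2 spans 31603376 to 31608794 and Ffar3 31639349 to 31641197, with 30554 bases between them, and Ffar1 starts 4389 bases beyond Ffar3. Ffar2 had 9.74 and 11.3 FPKM in the mutants and 14.0 and 8.93 FPKM in the controls. Both mutants thus lay between the controls. The mean was 10.5 ± 1.09 FPKM in mutants and 11.4 ± 3.55 FPKM in controls (log2 change −0.09, SE 0.25, 95% interval −0.66 to 0.48, limma adjusted p = 0.914). The sign turned under both rescalings, at 0.08 after median ratio rescaling and 0.10 after quantile normalization.

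Ffar2 is known in enteroendocrine cells and also in neutrophils and other myeloid cells. The summed level of myeloid markers was 346 and 618 FPKM in the mutants and 790 and 529 FPKM in the controls. Control 1 was the highest library both for Ffar2 and for that sum. The lowest was control 2 for Ffar2 and mutant 1 for the sum. Most of the sum came from Lyz2, at 271 and 499 FPKM in the mutants and 643 and 422 FPKM in the controls. The part of myeloid cells in Ffar2 was not tested. The neutrophil genes S100a8 and S100a9 were low throughout, at most 6.57 and 1.91 FPKM in any library. Both were listed at 0 in mutant 1, the library of lowest depth. Csf3r, another of the myeloid markers, had 1.29 and 1.71 FPKM in the mutants and 1.64 and 1.02 FPKM in the controls.

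Ffar3 had 0.808 and 0.50 FPKM in the mutants and 0.375 and 0.748 FPKM in the controls, from 8 and 11 implied fragments in the mutants and 8 and 18 in the controls. Within each group one library was high and the other low, and the log2 change was 0.13 (95% interval −0.61 to 0.87, limma adjusted p = 0.904). Ffar2 stood above Ffar3 in all 4 libraries, although both receptors are known to answer to the same acids. Cd22, a B cell gene 3933 bases beyond Ffar1, had 1.48 and 0.872 FPKM in the mutants and 6.66 and 0.696 FPKM in the controls, highest in control 1 as the B cell markers were.

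The Ffar2 estimate was divided among 5 RefSeq transcripts, each with its own start. NM_146187, whose start is the most upstream and whose preceding sequence is given above, held 33.6% and 79.2% of the gene's FPKM in the mutants and 58.3% and 66.96% in the controls. Its level was 3.28 and 8.93 FPKM in the mutants, against 8.13 and 5.98 FPKM in the controls, so mutant 1 stood apart from the other 3 libraries. NM_001168512, whose start is the most downstream, had 4.17 and 2.13 FPKM in the mutants and 0.960 and 1.55 FPKM in the controls. Both mutants were above both controls for it, with a log2 change of 1.02 (95% interval −0.03 to 2.06), but it did not pass over 16903 transcripts (limma adjusted p = 0.853, unadjusted 0.0546; 0.00592% of transcripts passed).

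NM_001168511, another Ffar2 transcript, varied within both groups. It stood at 2.29 FPKM in mutant 1 and 3.13 FPKM in control 1, and at 0.00227 FPKM in mutant 2 and 0.00205 FPKM in control 2. NM_001168510 had at most 0.210 FPKM in the mutants and 1.17 and 0.453 FPKM in the controls. NM_001168509 was listed at close to 0 in both mutants and at 0.559 and 0.944 FPKM in the controls. Both of these were lower in each mutant than in each control, at low levels and with no test. Of all genes, 35.1% were lower and 3.39% higher in both mutants, and such shares were not computed over transcripts. The Ffar2 transcripts share most of their sequence, so the split between them is an estimate. Of the 11 member transcripts tested, none passed (limma), and 1 had an unadjusted limma p under 0.05, against 4.19% of transcripts. That was the only Adra2a transcript, at 0.0150 (limma).

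**Figure D3:**
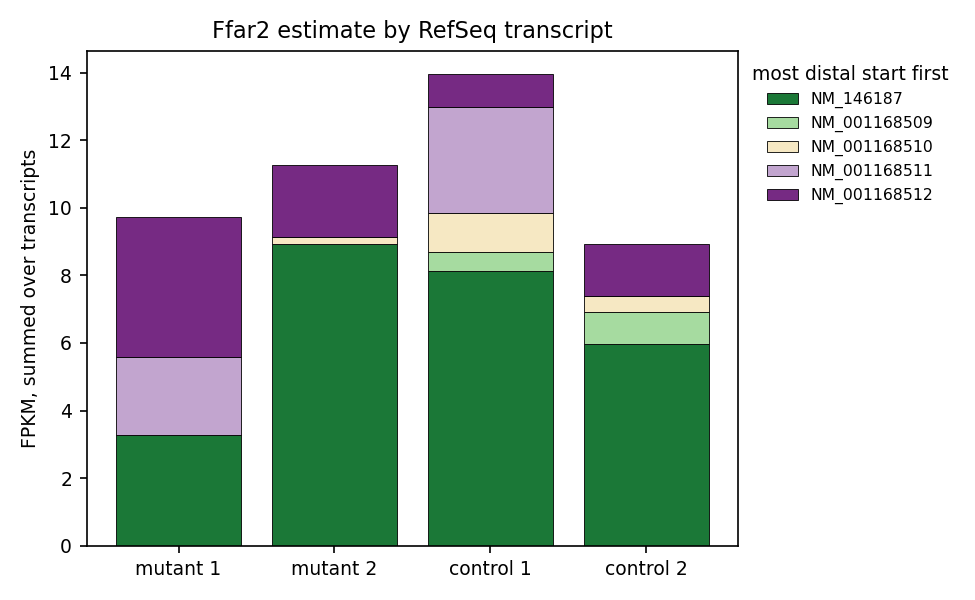
FPKM of Ffar2 in each library, stacked by RefSeq transcript from the most distal start (bottom) to the nearest (top). The totals overlap between mutants (9.74 and 11.3 FPKM) and controls (14.0 and 8.93 FPKM), while the share of the most distal start runs from 33.6% in mutant 1 to 79.2% in mutant 2.

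Gpr119 and Casr, the receptors for fat-derived lipid amides and for calcium and aromatic amino acids, were under the filter. Gpr119, which raises cyclic AMP through Gs, had 0.278 and 0.375 FPKM in the mutants and 0.290 and 0.286 FPKM in the controls, from 4 and 12 implied fragments in the mutants and 9 and 10 in the controls. Mutant 2 was the highest library and mutant 1 the lowest, so the groups overlapped. Casr had 0.363 and 0.0892 FPKM in the mutants and 0.169 and 0.177 FPKM in the controls. The mutants took both the highest and the lowest value. In mutant 1, however, 178 of 1111 other olfactory receptor rows (16.02%) were above Gpr119 and 144 (13.0%) above Casr, against at most 5 and 15 rows in the other libraries. The authors' deposited table gave mean normalized counts of 18.7 in mutants and 9.56 in controls for Casr (p = 0.766) and 9.11 in mutants and 7.28 in controls for Gpr119 (p = 0.846). Gpr119 spans 46021156 to 46027655 of chromosome X and Casr 36493782 to 36562220 of chromosome 16, both on the minus strand.

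Trpa1, the channel that opens to plant and endogenous irritants, was the only receptor gene whose mutant values both exceeded the controls as deposited. It had 0.917 and 0.952 FPKM in the mutants, against 0.557 and 0.682 FPKM in the controls, from 26 and 60 implied fragments in the mutants and 34 and 47 in the controls. The groups did not overlap, but the authors' intervals did (0.557 to 1.28 and 0.706 to 1.20 FPKM in the mutants, 0.366 to 0.747 and 0.483 to 0.881 FPKM in the controls). The mean was 0.934 ± 0.0251 FPKM in mutants and 0.619 ± 0.0886 FPKM in controls (SD, n = 2 each), with a log2 change of 0.36 (SE 0.28, 95% interval −0.27 to 0.99, limma adjusted p = 0.825, unadjusted 0.227). Its log2 change was positive in all 16 fits and tables run, from 0.26 to 0.87. Since the groups did not overlap, leaving out a library or changing the pseudocount could not turn the sign of that change. Settings that changed only the filter, the variance trend, the row handling or the replicate block gave the same estimate. With the mean of the other olfactory receptor rows subtracted from each library, a step chosen after the data were seen, it was 0.30.

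The authors' deposited table gave Trpa1 mean normalized counts of 57.9 in mutants and 31.7 in controls (p = 0.325). Its row spans 14862729 to 14908943 of chromosome 1, minus strand, with a transcript of 4263 bases. In the same mutant libraries the enterochromaffin genes Tph1, Chga and Chgb fell; Chga, a granule protein, had 4.87 and 8.69 FPKM in the mutants against 43.4 and 69.8 FPKM in the controls. The Trpa1 values thus differed in direction from those of Adra2a and Olfr558, although all 3 are known in mouse enterochromaffin cells. The difference between the receptors was not tested.

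Olfr558 and Olfr78 belong to the olfactory receptor family but are known outside the nose, Olfr78 as a receptor for short-chain fatty acids and lactate. They were among the most abundant of 1113 olfactory receptor rows, with Olfr78 at rank 1 and Olfr558 at rank 3 by mean FPKM over the 4 libraries. Between them stood the pseudogene row Olfr1372-ps1 (mean 0.998 FPKM), and Olfr165 (0.601) and Olfr56 (0.50) followed. In the 3 libraries other than mutant 1, at most 2 of the other 1111 rows were above Olfr558 and at most 1 above Olfr78. In mutant 1, 51 rows (4.59%) were above Olfr558 and 0 above Olfr78.

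Olfr558 had 0.527 and 0.569 FPKM in the mutants, against 0.978 and 1.13 FPKM in the controls, from 10 and 24 implied fragments in the mutants and 40 and 52 in the controls. Both mutants were low and both controls high. The mean was 0.548 ± 0.0299 FPKM in mutants and 1.05 ± 0.105 FPKM in controls (SD, n = 2 each). The log2 change was −0.57 (SE 0.28, 95% interval −1.20 to 0.07), and it did not pass (limma adjusted p = 0.825, unadjusted 0.0727). It was negative in all 16 fits and tables run, from −0.83 with a pseudocount of 0.1 FPKM to −0.41 with 1 FPKM. The change was −0.54 without mutant 1, and with no overlap leaving out a library or changing the pseudocount could not turn its sign. Its estimate was the same in settings that changed only the filter, the variance trend, the row handling or the replicate block. The authors' deposited table had mean normalized counts of 22.3 in mutants and 36.7 in controls (p = 0.440). The neuronal, glial and vascular marker sums given beside Adra2a were lower in the same libraries. The smooth muscle, myeloid and adipocyte sums overlapped between the groups. The part of any of these cells in Olfr558 was not tested. Olfr558 lies on the plus strand of chromosome 7 from 109850837 to 109860568, and no other row overlaps it.

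Olfr78 had 1.35 and 0.981 FPKM in the mutants and 1.07 and 1.33 FPKM in the controls. Mutant 1 was the highest and mutant 2 the lowest, and the log2 change was −0.04 (95% interval −0.66 to 0.59, limma adjusted p = 0.970). Its sign turned to 0.09 after median ratio rescaling and 0.11 after quantile normalization. Its row, 109889235 to 109907985 of chromosome 7 on the minus strand, overlaps the row of Olfr560, which stood at 0.806 FPKM in mutant 1 and at 0 in the other libraries, and reads shared between them may have been split. Its transcripts NM_001168503 and NM_130866 have the same start. The first had 0.833 and 0.525 FPKM in the mutants and 0.992 and 0.162 FPKM in the controls, and the second 0.513 and 0.456 FPKM in the mutants and 0.0787 and 1.17 FPKM in the controls, so the split between them was opposite in the 2 controls.

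**Figure D4:**
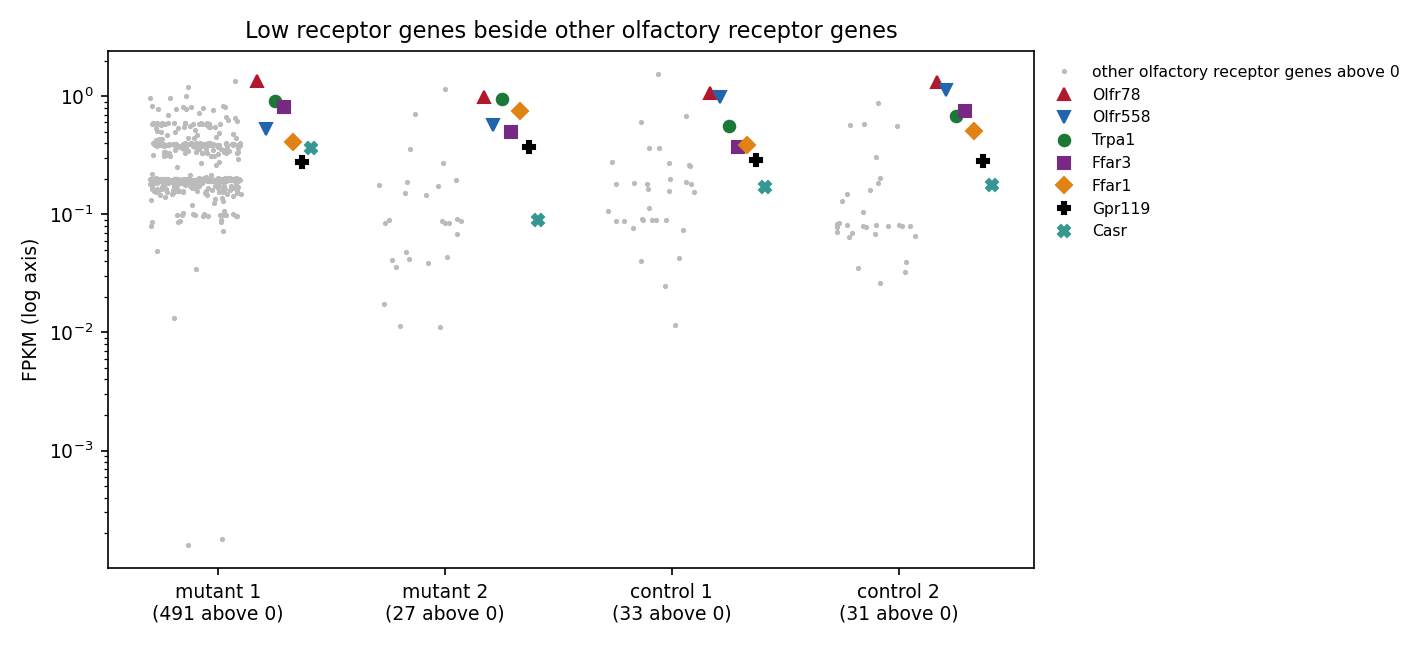
FPKM (log axis) of the 7 low receptor genes in each library (coloured symbols) beside the other olfactory receptor rows above 0 (grey points, number under each library). Mutant 1 has 491 such rows above 0, many at the levels of Ffar1, Gpr119, Casr and Olfr558, while the other libraries have 27 to 33.

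Related genes were read from lists of other sensors, transducers and adrenergic genes. Of 20 other metabolite and taste receptor genes, 10 were tested and 0 passed (0 at an unadjusted limma p under 0.05; 7 negative, median log2 change −0.12). The most abundant were Gpr35, a receptor for tryptophan metabolites, at 7.57 and 8.77 FPKM in the mutants and 7.14 and 9.24 FPKM in the controls, and Lpar5, a lysophosphatidic acid receptor gene, at 7.25 and 8.76 FPKM in the mutants and 7.32 and 7.75 FPKM in the controls. Both overlapped between the groups. The smallest p-values were those of Gpr18, with 2.08 and 1.93 FPKM in the mutants and 5.25 and 2.41 FPKM in the controls (log2 change −0.71, unadjusted p = 0.0642), and of the lipid receptor gene Gpr55 (log2 change −0.55, unadjusted p = 0.114).

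Of 20 other sensory channels and transporters, 16 symbols are in the files and 10 were tested, with 0 past the threshold, 0 at an unadjusted limma p under 0.05, 7 negative and a median log2 change of −0.12. Slc5a8, which takes up short-chain fatty acids with sodium, had 76.3 and 71.9 FPKM in the mutants and 91.8 and 75.4 FPKM in the controls. Slc16a1, a monocarboxylate carrier, had 57.1 and 59.3 FPKM in the mutants and 57.2 and 72.0 FPKM in the controls. The carriers of short-chain fatty acids were thus several times more abundant per length than Ffar2 in every library. The osmotic and warmth channel gene Trpv4 had 0.521 and 0.384 FPKM in the mutants and 0.792 and 0.546 FPKM in the controls (log2 change −0.29, unadjusted p = 0.358).

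All 30 G protein and second messenger genes were tested, with 0 past the threshold and 2 lower at an unadjusted limma p under 0.05, against 4.12% of all genes. Of the 30, 28 were negative, against 82.6% of all genes, 14 were lower in both mutants, against 35.1%, and the median log2 change was −0.24, against −0.17 for all genes. The 2 were Itpr1, a calcium release channel, with 3.61 and 4.27 FPKM in the mutants against 6.79 and 5.70 FPKM in the controls (log2 change −0.60, unadjusted p = 0.0247), and Rgs16, which shortens G protein signals, with 1.48 and 1.15 FPKM in the mutants against 2.03 and 2.88 FPKM in the controls (log2 change −0.69, unadjusted p = 0.0319). Gnas, the Gs alpha subunit, was the most abundant at 405 and 493 FPKM in the mutants and 538 and 559.6 FPKM in the controls. Gnai2, a Gi subunit, followed at 128 and 165 FPKM in the mutants and 193 and 167 FPKM in the controls. Neither passed (limma adjusted p = 0.825 for each), and after median ratio rescaling the list's median was −0.10.

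**Figure D5:**
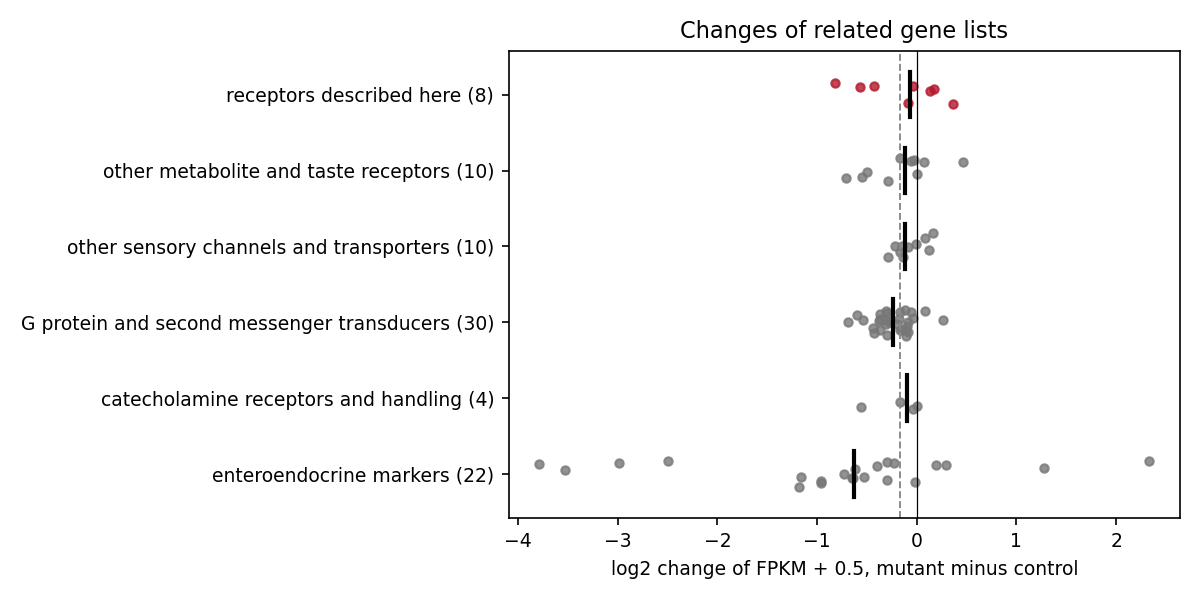
Log2 change of FPKM + 0.5 (mutant minus control) of each tested gene in 6 lists, with the number tested in brackets, a black bar at each median and a dashed line at the median of all genes (−0.17). The 8 receptor genes described here lie between −0.81 and 0.36, while the enteroendocrine markers run from −3.79 to 2.33.

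The enteroendocrine markers were read beside the receptors. Of 22 tested of 25, 4 fell (limma adjusted p under 0.05, against 0.0286% of all genes) and 1 rose (against 0.0357%), and the median log2 change was −0.63, against −0.17 for all genes. At an unadjusted limma p under 0.05, 12 were lower, against 4.12% of all genes, and 2 were higher, against 0.7%. Those that fell were Tph1, the granule genes Chga (log2 change −2.98, adjusted p = 0.0163) and Chgb (−3.53, 0.0302), and Insl5, a peptide hormone of the colon (−2.49, 0.0140). Ghrl, the ghrelin gene, rose (2.33, 0.0163). None of these 5 genes passed after median ratio rescaling, after quantile normalization, with no filter on low values or without mutant 1. Their log2 changes there were −3.79 to −3.21 for Tph1, −2.98 to −2.59 for Chga, −3.53 to −2.83 for Chgb, −2.62 to −2.33 for Insl5 and 2.09 to 2.51 for Ghrl. Chga and Chgb did not pass without a variance trend in limma, nor did Chga, Insl5 and Ghrl without mutant 2. This list was chosen with the earlier results of these libraries known, so its counts are no independent evidence. Pyy, a hormone of the L cells in which Ffar2, Ffar3, Gpr119 and Olfr78 are known, had 198 and 166 FPKM in the mutants and 57.2 and 96.7 FPKM in the controls (log2 change 1.28, adjusted p = 0.404). Gcg, from the same cells, had 116 and 95.01 FPKM in the mutants and 61.8 and 119 FPKM in the controls.

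Among the other cell types of the colon wall, no marker passed. Epithelial markers summed to 25049 and 24703 FPKM in the mutants and 22675 and 31067 FPKM in the controls, mostly from Car1 (8 of 12 negative). Tuft cell markers, which mark another chemosensory epithelial cell, summed to 28.1 and 31.9 FPKM in the mutants and 29.9 and 33.5 FPKM in the controls, with 4 of 8 tested negative. Smooth muscle markers summed to 1492 and 1892 FPKM in the mutants and 2044 and 1826 FPKM in the controls (8 of 9 negative). Myeloid markers had 10 of 11 negative and adipocyte markers 5 of 6, against 82.6% of all genes. B cell markers summed to 15.1 and 12.3 FPKM in the mutants and 141 and 10.3 FPKM in the controls. All 8 were negative in the fit, which rests on control 1, since the sums of both mutants stood above that of control 2. The tuft list shares Trpm5 and Gnat3 with the lists of channels and transducers, and Chat with the neuron list.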

How the data were processed

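Total RNA was purified on columns and sequenced as TruSeq libraries, per the labels' protocols. Named in the submitters' processing notes are bcl2fastq 1.8.4, TopHat, Cufflinks, DESeq and the mouse build mm9. Per the file headers, the authors deposited FPKM with a 95% interval and a status per gene and RefSeq transcript, and the coverage signal and length of each transcript. In their deposited DESeq table, the authors gave a mean normalized count signal per group, a fold ratio (mutant over control) and its log2 value. The same deposited table holds a p-value with its adjusted form. No count model was run, since FPKM are normalized values.

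Rows that were not marked OK in every library were left out (306 of 23699), and rows sharing a symbol were summed. The test took the 13997 genes whose mean reached 0.5 FPKM, as log2(FPKM + 0.5), which understates changes of low genes. It used limma 3.58.1 under R 4.3.3, with a trend in the variance prior and Benjamini-Hochberg adjustment at 0.05 over all genes. There were 2 residual degrees of freedom and 6.27 prior ones at the median. With 2 libraries a group, the smallest exact permutation p is 0.333, so none is given. Total depth is not in the sources used here. Fragments were implied from the width of the FPKM interval, and relative depth from coverage over FPKM, and both cover counting error only. Sequences were read from the NCBIM37 genome, the assembly of mm9, at the starts in the files, with strands from GENCODE vM1.

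The 10 members, the other lists (15 in all with the members) and the tests were chosen with earlier results of these data known. The rule for named genes took the members, Nkx2-2, the passing genes, the 2 most abundant and the 2 with the smallest p of each list, and the 3 most abundant other olfactory receptor rows; markers of cell types are given mostly as sums. Some genes that the rule took are not reported here. Gcg, Adra2b, Adra2c, Csf3r and genes neighbouring a member are named outside the rule, with their values known. Alternatives were set for the pseudocount, filter, scaling, variance model, row handling, replicate number, each library left out, and the authors' table.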

Additional observations from a re-analysis of the deposited data

How the results depend on the processing

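No receptor passed the threshold under any of the 16 limma settings (0 of 4 to 10 tested) or in the authors' deposited table, and 0 to 2 had an unadjusted limma p under 0.05. Adra2a, O3far1 and Olfr558 stayed negative and Trpa1 positive in all that were run. For Adra2a, Olfr558 and Trpa1, whose groups did not overlap, leaving out a library or changing the pseudocount could not turn the sign. Several other settings returned the same estimate for these genes. O3far1 ran from −0.72 to −0.14 and Trpa1 from 0.26 to 0.87. Others turned sign: Ffar1 −0.049 without mutant 2 (to 0.40 without mutant 1); Ffar2 0.078 after median ratio rescaling, 0.096 after quantile normalization, 0.026 in the authors' deposited table and −0.40 to 0.22 with a library left out; Ffar3 −0.13 to 0.39 with a library left out, negative without control 1 and without mutant 1 (−0.06); Olfr78 0.089, 0.11 and 0.058 in the same 3 and −0.20 to 0.12 with a library left out. With no test, Casr was at −0.19 without mutant 1 and −0.021 after the background subtraction, and Gpr119 at −0.019 without mutant 2 and −0.053 after that subtraction. In the authors' table Casr was at 0.97 and Gpr119 at 0.32. The number of all genes past the threshold, 9, became 2 with no filter, 3 after median ratio rescaling (3 higher, 0 lower), 2 after quantile normalization, and 8 (without mutant 1) to 362 (without control 2) with a library left out; a lone library is then assumed to vary like the other group. The members lower in both mutants, 2, became 2 to 4 with a library left out, and those higher in both, 1, became 2 to 4 and 2 after median ratio rescaling. A gene separates more readily with fewer libraries, and the shares of all genes with a library left out were not computed. With the replicate number as a block, 195 genes passed and no receptor did. The labels state no pairing, and the numbers were not taken as one. Deviations of same-numbered libraries from their group means had r = −0.0022 across 13997 genes. With 2 pairs that value cannot decide whether same-numbered libraries share a batch. The cause of the differences between settings was not tested. Members under a filter gave no value there, and Ffar1 fell under it after the background subtraction, which was chosen after the data were seen. Depth limits Ffar1, Ffar3, Gpr119 and Casr, which rest on 2 to 18 implied fragments. It also limits Olfr558 in mutant 1, with 10 implied fragments and 51 other olfactory receptor rows (4.59%) above it.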
